A study of Sus scrofa with 16 samples.

Results

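ATF4, ASNS, AARS, XBP1, MANF, CRELD2 and HSPH1 are 7 genes of the cellular response to unfolded protein and to shortage of amino acids. They were taken from a porcine expression array as all probe sets annotated with one of these symbols. This gave 9 probe sets for 7 of the 6765 annotated genes, out of 23999 probe sets that are not controls. A gene was tested on its probe set with the highest mean, provided that this lay above a log2 signal of 5 on at least 4 of the 16 arrays, and all 7 genes passed. The second probe sets of ATF4 (2.14 to 2.17 on all arrays, at the floor of the scale) and of AARS (2.47 to 4.17) did not pass. Of all probe sets, 11538 passed and were tested.

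The study asked how antibiotics given from birth alter the preterm gut, in piglets prone to necrotizing enterocolitis. Crossbred piglets (Landrace, Large white and Duroc) were delivered by caesarean section on gestation day 105, fed parenterally for 3 days and by formula for 2 days, and killed on day 5. The 4 groups of 4 arrays were antibiotics distal, control distal, antibiotics proximal and control proximal small intestine. Antibiotics piglets received ampicillin, gentamycin and metronidazol by mouth and into muscle every day from birth. Control piglets, called untreated in the sample names, received saline in the same way. Taking the number that each sample title carries for the piglet's, there were 9 piglets from 2 sows, and 7 of them (3 antibiotics, 4 control) gave both segments. The sources used here give neither litter nor lesion state per array.

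As background, cells that run short of amino acids, or whose endoplasmic reticulum (ER) fills with unfolded protein, phosphorylate the translation factor eIF2. General protein synthesis then slows while the transcription factor ATF4 is made, and ATF4 switches on genes of amino acid synthesis, amino acid uptake and tRNA charging, among them ASNS and AARS. Unfolded protein also activates the ER sensor IRE1, which splices the mRNA of the transcription factor XBP1, and XBP1 and its partner ATF6 raise ER chaperones and their helpers, among them MANF and CRELD2. In mice, XBP1 is needed for the secretory Paneth and goblet cells of the gut. HSPH1 belongs to a separate system, the heat shock response of the cytosol. The array reads total mRNA, so ATF4 protein, eIF2 phosphorylation and XBP1 splicing were not measured.

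The arrays were alike in the share of probe sets above a log2 signal of 5 (45.1% to 46.5%), and their number limits the precision of every comparison. Enterocyte markers, 7 annotated of 10 and all tested, were bright, FABP1, FABP2 and VIL1 having group means from 12.91 to 16.41 log2. Their summed level was 17.61 to 17.76 in antibiotics distal and 17.33 to 18.13 in control distal arrays, and 18.02 to 18.36 in antibiotics proximal and 17.25 to 18.09 in control proximal arrays. With antibiotics 5 of 7 had lower means in distal tissue and 6 of 7 higher means in proximal tissue. Arrays were also placed on an axis set by the antibiotics arrays, where by construction 0 is their proximal and 1 their distal mean. Control distal arrays 83 and 88 lay at 0.413 and 0.410, control distal arrays 92 and 89 at 0.554 and 0.721. Control proximal arrays lay at 0.0389 to 0.212. All control distal arrays were thus short of 1. Control arrays did not set the axis, so it does not place them on equal terms. The 5′ minus 3′ signal of control probe sets for actin and GAPDH, which falls as RNA degrades, averaged -4.70 ± 0.90 log2 in antibiotics distal and -4.28 ± 0.46 in control distal arrays (SD over 4 arrays each, exact permutation test, two-sided, p = 0.457), and -3.43 ± 0.65 in antibiotics proximal against -3.79 ± 0.89 in control proximal arrays (p = 0.543 by the same exact test). The gap was wider between the segments of antibiotics piglets, -4.70 in distal against -3.43 in proximal arrays (exact permutation p = 0.0571), than in controls (exact p = 0.343). Markers of some white blood cells differed between treatments. The summed level of 4 neutrophil genes was 4.80 to 5.10 log2 in antibiotics distal and 6.90 to 11.20 in control distal arrays, and 4.93 to 5.94 in antibiotics proximal and 7.37 to 10.97 in control proximal arrays. Control piglet 88 had the lowest neutrophil sum among controls in both segments. The summed level of 7 T and NK cell genes overlapped, at 5.48 to 6.46 in antibiotics distal and 5.71 to 7.35 in control distal arrays. In proximal tissue it was 5.88 to 6.69 in antibiotics and 5.93 to 7.23 in control arrays, and 4 of these genes were under the filter on every array. In whole tissue, fewer cells of a type and less RNA per cell cannot be told apart.

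Comparisons were made with limma over all 16 arrays, with p values adjusted by Benjamini-Hochberg over all 11538 probe sets and a threshold of 0.05. None of the 7 genes passed in any of 6 comparisons. At an unadjusted limma p of 0.05, 3 genes were lower with antibiotics in distal tissue (XBP1, CRELD2 and ATF4), where 7.95% of all probe sets were, and 6 in proximal tissue (all but XBP1), where 7.28% were. The adjusted test called 2.12% of all probe sets in distal and 0.147% in proximal tissue, in either direction. Values below are log2 signals or log2 differences, antibiotics minus control unless stated. Levels are not compared between genes, since each probe set has its own scale.

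**Figure D1:**
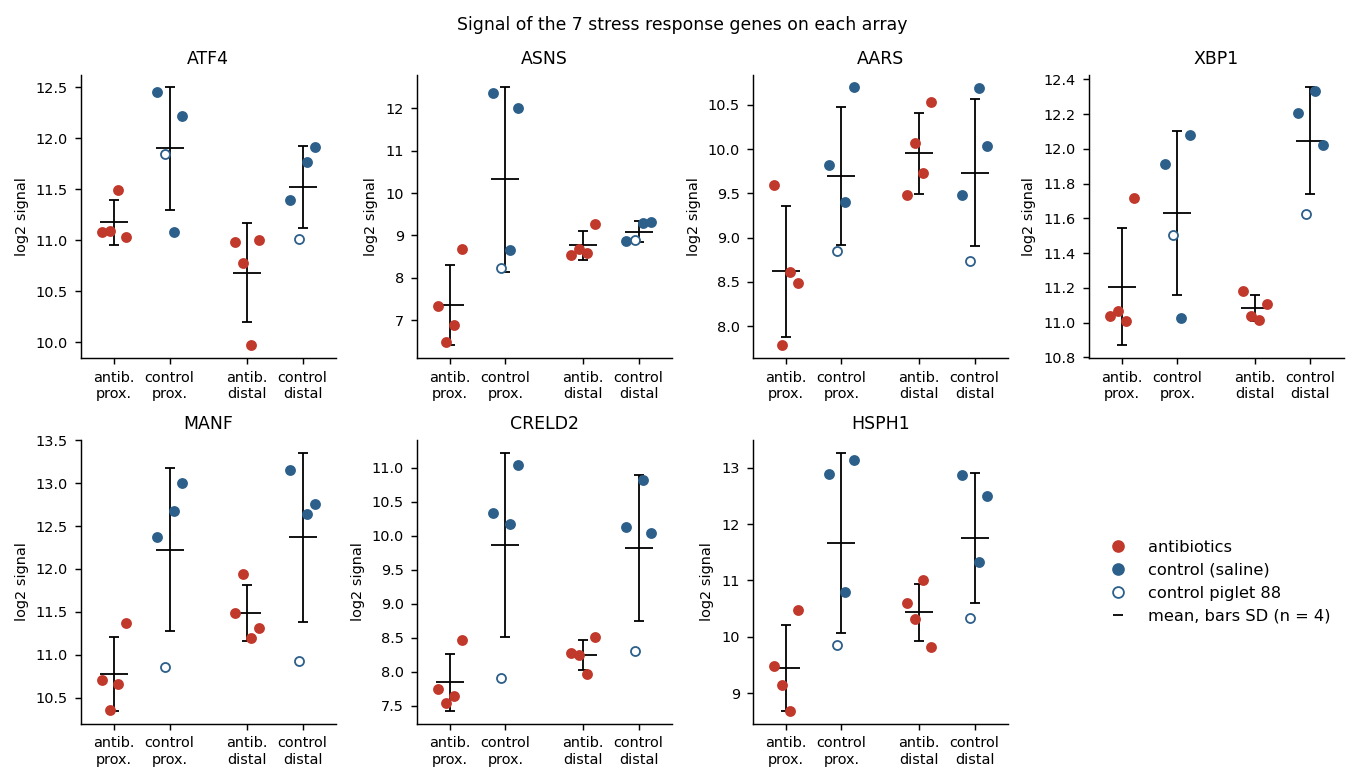
Log2 signal of the 7 genes (y axes, 1 panel each, not starting at 0) on each of the 16 arrays, by treatment and segment, with the mean and SD of each group (n = 4). XBP1 and ATF4 were lower on all 4 antibiotics distal arrays than on any control distal array, while the open symbols, control piglet 88, lay among or near the antibiotics arrays for CRELD2, MANF and HSPH1.

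ATF4, the transcription factor at the head of the amino acid arm, had 10.98, 10.78, 9.97 and 11.00 in antibiotics distal arrays 85, 86, 87 and 95, against 11.40, 11.02, 11.77 and 11.92 in control distal arrays 83, 88, 89 and 92. The groups did not overlap, but antibiotics array 95 and control array 88 were nearly level. The difference was -0.84 (SE 0.31, 1.79-fold lower, limma adjusted p = 0.192). In proximal tissue ATF4 had 11.08, 11.09, 11.50 and 11.03 in antibiotics arrays 86, 87, 95 and 98, against 12.45, 11.84, 11.08 and 12.21 in control arrays 83, 88, 89 and 92. Control array 89 lay at the level of the antibiotics arrays and the other controls above all of them (-0.72, SE 0.31, adjusted p = 0.349).

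ASNS, the enzyme that makes asparagine from aspartate and glutamine, showed the widest range of the 7 genes. In proximal tissue it had 7.34, 6.50, 6.89 and 8.67 in antibiotics arrays 86, 87, 95 and 98, against 12.37, 8.24, 8.66 and 12.02 in control arrays 83, 88, 89 and 92. The controls formed a high and a low pair, and the low pair, 88 and 89, lay within the antibiotics range. The summed enterocyte markers split the same control arrays the other way, with 17.25 and 17.40 on arrays 83 and 92 against 18.05 and 18.09 on arrays 88 and 89, and their part in the ASNS result was not tested. The difference was -2.97 (SE 0.76, 95% interval -4.58 to -1.36, 7.83-fold lower, limma adjusted p = 0.133). In distal tissue the signals were close to each other, 8.53, 8.68, 8.59 and 9.27 in antibiotics arrays 85, 86, 87 and 95, against 8.87, 8.88, 9.30 and 9.32 in control arrays 83, 88, 89 and 92 (-0.32, 95% interval -1.94 to 1.29, adjusted p = 0.892). The antibiotic effect on ASNS differed between segments by 2.64, distal minus proximal (SE 1.07, unadjusted 95% interval 0.36 to 4.93), which did not pass after adjustment (limma adjusted p = 0.643).

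AARS, the cytosolic enzyme that charges alanine tRNA, had 9.59, 7.78, 8.61 and 8.49 in antibiotics proximal arrays 86, 87, 95 and 98, against 9.82, 8.85, 9.41 and 10.70 in control proximal arrays 83, 88, 89 and 92. All but one of the antibiotics arrays lay below every control, and array 86 lay among them (-1.07, SE 0.47, adjusted p = 0.35). In distal tissue it had 9.48, 10.07, 9.73 and 10.53 in antibiotics arrays 85, 86, 87 and 95, against 9.49, 8.73, 10.69 and 10.03 in control arrays 83, 88, 89 and 92. The groups overlapped widely, and AARS was the 1 gene of the 7 with a higher mean under antibiotics there (0.22, SE 0.47, adjusted p = 0.877). That sign rests on control distal array 88, and without it the difference was -0.12 (adjusted p = 0.935, range over all alternatives 0.69 to 1).

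XBP1, the transcription factor of the chaperone arm, gave the smallest adjusted p of the 7 genes. It had 11.18, 11.04, 11.01 and 11.11 in antibiotics distal arrays 85, 86, 87 and 95, against 12.21, 11.63, 12.33 and 12.02 in control distal arrays 83, 88, 89 and 92. The antibiotics arrays lay close to each other and all below the lowest control, array 88. The difference was -0.96 (SE 0.25, 95% interval -1.49 to -0.43, 1.95-fold lower), with a limma adjusted p of 0.0611, just above the threshold. It passed with trend and robust variance estimates (limma adjusted p = 0.047), with only the 8 distal arrays in the fit (0.0317) and with array quality weights (0.00276). It also passed without antibiotics proximal array 98 (0.0402), without control proximal array 89 (0.0359) and without control distal array 88 (0.0382). In 29 of 36 alternatives it did not pass, and the range over all of them was 0.00276 to 0.256. These alternatives called 81 to 1665 of all probe sets in distal tissue, against 245 as reported. Macrophage markers moved with XBP1 in distal tissue. Their summed level over 5 annotated genes of 8 was 7.47 to 8.34 in antibiotics and 10.44 to 10.98 in control arrays, with CD14 under the filter on every array, and its part in the XBP1 result was not tested. In proximal tissue the sums overlapped, at 8.87 to 10.28 in antibiotics and 10.08 to 11.66 in control arrays. Of the 4 tested macrophage genes 2 had lower and 2 higher means with antibiotics there. Of 4 annotated genes of a plasma and B cell list of 10, TNFRSF17 and CD79B were under the filter on every array. JCHAIN, the joining chain of secreted antibodies, averaged 6.25 in antibiotics distal and 6.24 in control distal arrays. PIGR, in fact the epithelial receptor that carries those antibodies, was 2.16 to 2.37 in antibiotics distal and 3.73 to 7.03 in control distal arrays, without overlap.

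In proximal tissue XBP1 had 11.04, 11.07, 11.01 and 11.72 in antibiotics arrays 86, 87, 95 and 98, against 11.91, 11.50, 11.03 and 12.08 in control arrays 83, 88, 89 and 92. The groups overlapped through antibiotics array 98 and control array 89 (-0.42, SE 0.25, adjusted p = 0.516).

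MANF, an ER protein that is secreted and helps cells survive ER stress, had 10.71, 10.36, 10.66 and 11.37 in antibiotics proximal arrays 86, 87, 95 and 98, against 12.37, 10.86, 12.68 and 13.00 in control proximal arrays 83, 88, 89 and 92. All controls but array 88 lay well above the antibiotics arrays (-1.45, SE 0.48, 2.74-fold lower, limma adjusted p = 0.224). In distal tissue it had 11.49, 11.94, 11.20 and 11.32 in antibiotics arrays 85, 86, 87 and 95, against 13.15, 10.92, 12.64 and 12.75 in control arrays 83, 88, 89 and 92. Control array 88 was the lowest of all 8 distal arrays and the other controls were above every antibiotics array (-0.88, SE 0.48, adjusted p = 0.402).

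CRELD2, an ER protein induced by ER stress, showed the largest mean differences of the chaperone arm. In proximal tissue it had 7.74, 7.54, 7.64 and 8.46 in antibiotics arrays 86, 87, 95 and 98, against 10.33, 7.91, 10.18 and 11.04 in control arrays 83, 88, 89 and 92 (-2.02, SE 0.57, 4.05-fold lower, limma adjusted p = 0.172). In distal tissue it had 8.27, 8.25, 7.97 and 8.51 in antibiotics arrays 85, 86, 87 and 95, against 10.13, 8.30, 10.82 and 10.04 in control arrays 83, 88, 89 and 92 (-1.57, SE 0.57, 2.98-fold lower, limma adjusted p = 0.182). In both segments control 88 lay inside the antibiotics range and the other controls were above every antibiotics array of their segment. In proximal tissue only antibiotics array 98 lay above control 88.

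HSPH1, a large cytosolic chaperone of the HSP110 family that recharges HSP70, had its highest signals on the control arrays of piglets 83 and 92 in both segments, in proximal tissue the arrays with the lowest enterocyte sums. In proximal tissue it had 9.48, 9.14, 8.69 and 10.48 in antibiotics arrays 86, 87, 95 and 98, against 12.88, 9.85, 10.79 and 13.13 in control arrays 83, 88, 89 and 92 (-2.22, SE 0.69, 4.65-fold lower, limma adjusted p = 0.197). In distal tissue it had 10.59, 10.31, 11.01 and 9.81 in antibiotics arrays 85, 86, 87 and 95, against 12.87, 10.34, 11.32 and 12.49 in control arrays 83, 88, 89 and 92 (-1.32, SE 0.69, adjusted p = 0.378). Control 88 was again the lowest control in each segment and lay within the antibiotics range.

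**Figure D2:**
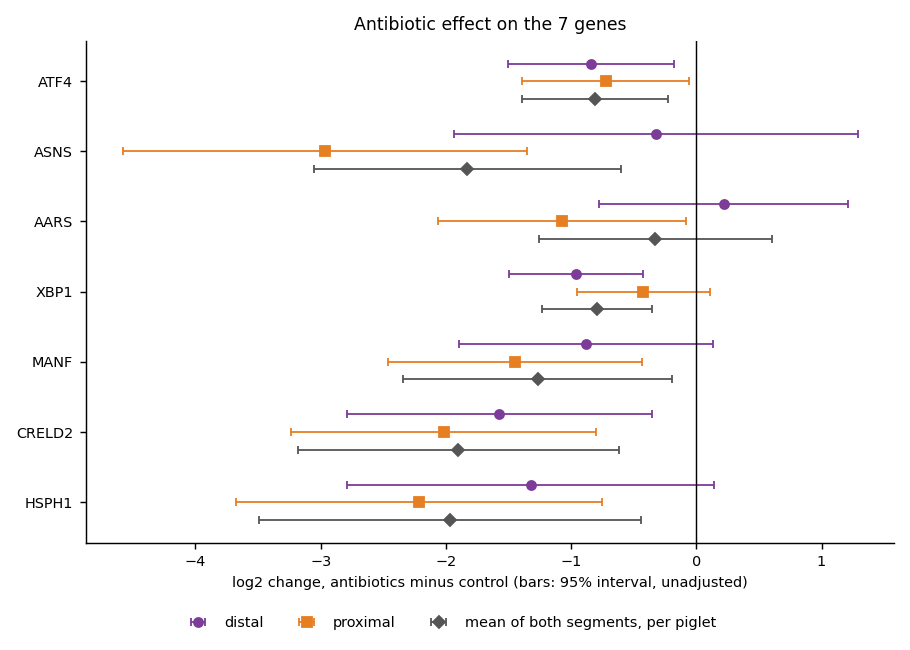
Log2 change (x axis, antibiotics minus control) of the 7 genes in distal tissue, in proximal tissue and on the mean of both segments per piglet, with unadjusted 95% intervals from limma. ASNS and AARS lay near 0 in distal tissue (-0.32 and 0.22) and below it in proximal tissue (-2.97 and -1.07), while XBP1 was further from 0 in distal tissue (-0.96) than in proximal tissue (-0.42).

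Seen over the 7 genes, means were lower with antibiotics for 6 in distal tissue, where 49.6% of all probe sets had lower means, and for 7 in proximal tissue, where 56.8% had. The median difference was -0.88 in distal tissue against 0.00 over all tested probe sets, and -1.45 in proximal tissue against -0.07. The groups did not overlap for 2 genes in distal tissue (XBP1 and ATF4, lower), as for 6.31% of all probe sets, and for 0 genes in proximal tissue, as for 1.74%. Neutrophil markers moved in the same direction in both segments. Of 4 annotated of 7, S100A8 and S100A12 were at the floor of 2.14 on all antibiotics arrays, and S100A9 averaged 2.32 in antibiotics distal and 9.46 in control distal arrays. The summed level of goblet cell markers, 4 annotated of 8, was 14.56 to 14.90 in antibiotics proximal and 15.08 to 15.66 in control proximal arrays, and 15.36 to 15.57 in antibiotics distal and 15.17 to 15.58 in control distal arrays. SPINK4, the brightest of them, carries the distal sum and had the higher mean with antibiotics there (14.97 in antibiotics, 14.61 in control arrays). The other goblet markers had lower means in distal tissue (list median -0.54). At an unadjusted limma p of 0.05, 2 of 4 were lower there, where 7.95% of all probe sets were. FCGBP averaged 8.39 in antibiotics distal and 9.39 in control distal arrays, and CLCA1 11.99 and 12.79. Proliferation markers, 4 annotated of 6, had lower means for 4 of 4 in both segments, and their sum was 11.33 to 12.11 in antibiotics distal and 12.25 to 12.36 in control distal arrays, without overlap, and 10.92 to 12.77 in antibiotics proximal and 11.95 to 12.64 in control proximal arrays. The part of these markers in the results for the 7 genes was not tested.

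Control 88 often lay among the antibiotics arrays, for the 7 genes at shares near those over all probe sets. It was no higher than the highest antibiotics array for 4 of the 6 genes with lower means in distal tissue (ASNS, MANF, CRELD2 and HSPH1), and for 6 of 7 in proximal tissue (all but ATF4). Over all probe sets with lower means the same held for 59% in distal and 80% in proximal tissue. It held for control 89 and 4 genes in proximal tissue (ATF4, ASNS, AARS and XBP1), as for 66.6% of all such probe sets, and for control 83 and 1 gene in distal tissue (ASNS), as for 53.3%. It held for control 92 and 0 genes, as for 48.3% in distal and 57.5% in proximal tissue. For the 6 genes in proximal tissue, control 88 lay below only the highest antibiotics array. This was array 98 for ASNS, XBP1, MANF, CRELD2 and HSPH1, and array 86 for AARS.

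As reported none of the genes passed. Without both arrays of piglet 88, CRELD2 (-2.08, SE 0.30, adjusted p = 0.00192), MANF (-1.36, SE 0.28, adjusted p = 0.0173) and XBP1 (-1.10, SE 0.27, adjusted p = 0.0389) passed in distal tissue, where limma then called 3.75% of all probe sets. In proximal tissue CRELD2 (-2.67, SE 0.30, adjusted p = 0.000855), MANF (-1.91, SE 0.28, adjusted p = 0.00324), ASNS (-3.66, SE 0.72, adjusted p = 0.0122) and HSPH1 (-2.82, SE 0.57, adjusted p = 0.0148) passed, where 4.58% of all probe sets were called. Over all alternatives the adjusted p ranged from 0.00192 to 0.469 for CRELD2 and from 0.0173 to 0.769 for MANF in distal tissue, and in proximal tissue from 0.000855 to 0.591 for CRELD2, 0.00324 to 0.672 for MANF, 0.00557 to 0.554 for ASNS and 0.014 to 0.619 for HSPH1. Piglet 88 stands out by these same values, so the fit without it shows only what depends on it and lends no support to a difference.

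Controls varied more than antibiotics piglets for most of the genes. The SD of control arrays was more than 2 times that of antibiotics arrays for 4 of 7 genes in distal tissue (XBP1, MANF, CRELD2 and HSPH1), as for 25.1% of all probe sets, and for 5 of 7 in proximal tissue (ATF4, ASNS, MANF, CRELD2 and HSPH1), as for 15.8%. CRELD2 had an SD of 0.22 in antibiotics distal and 1.07 in control distal arrays, and of 0.42 in antibiotics proximal and 1.35 in control proximal arrays. XBP1 had an SD of 0.08 in antibiotics distal and 0.31 in control distal arrays. ASNS did not share this in distal tissue, with 0.34 in antibiotics and 0.25 in control arrays.

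To compare the arms, each gene was centred on its mean over the 16 arrays and averaged over ATF4, ASNS and AARS for the amino acid arm and over XBP1, MANF and CRELD2 for the chaperone arm. In distal tissue the chaperone arm averaged -0.44 ± 0.15 in antibiotics and 0.69 ± 0.76 in control arrays, a difference of -1.14 (SE 0.39), and the amino acid arm -0.10 ± 0.35 in antibiotics and 0.22 ± 0.48 in control arrays, a difference of -0.32 (SE 0.30). The amino acid arm minus the chaperone arm was 0.17, 0.25, 0.18 and 0.77 on antibiotics distal arrays 85, 86, 87 and 95, against -1.10, 0.08, -0.53 and -0.37 on control distal arrays 83, 88, 89 and 92. Every antibiotics array was thus above every control array, by 0.82 on average (SE 0.28). The genes of the amino acid arm did not move as one there. ATF4 differed by -0.84, near XBP1 (-0.96), while ASNS differed by -0.32 and AARS by 0.22. Over the 16 arrays ATF4 was also more like XBP1 (Pearson correlation 0.666) than like ASNS (0.571) or AARS (0.231).

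In proximal tissue both arms were lower with antibiotics on average. The amino acid arm averaged -0.85 ± 0.43 in antibiotics and 0.74 ± 1.11 in control arrays, a difference of -1.59 (SE 0.59), and the chaperone arm -0.77 ± 0.39 in antibiotics and 0.52 ± 0.83 in control arrays, a difference of -1.30 (SE 0.46). The amino acid arm minus the chaperone arm was 0.33, -0.38, 0.05 and -0.30 on antibiotics proximal arrays 86, 87, 95 and 98, against 0.83, 0.36, -0.76 and 0.42 on control proximal arrays 83, 88, 89 and 92, with the groups overlapping (-0.29, SE 0.38). These are descriptions of arms chosen with results known, with no test, and the amino acid arm's proximal value rests in large part on ASNS.

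**Figure D3:**
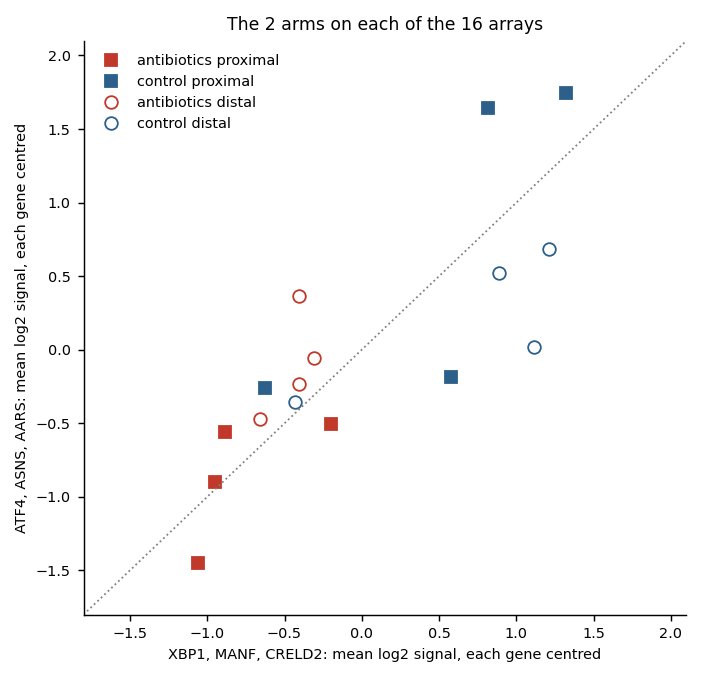
Mean centred log2 signal of ATF4, ASNS and AARS (y axis) against that of XBP1, MANF and CRELD2 (x axis) on each of the 16 arrays, with squares for proximal and open circles for distal tissue, and the line of equal values. Antibiotics distal arrays lie above the line (0.17 to 0.77 above), while control distal arrays lie between 1.10 below and 0.08 above it.

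Distal against proximal tissue of the same treatment gave no called gene either. In antibiotics piglets the 5′ minus 3′ signal was lower in distal arrays (-4.70 against -3.43). With it as a covariate AARS differed by 1.49, ASNS by 1.60 and ATF4 by -0.19 between these segments, and 329 probe sets were called. Limma called 5.25% of all probe sets in antibiotics (606, or 350 with the piglet as a fixed block) and 0.364% in control piglets (42, or 19 with the fixed and 74 with a random block). AARS was 1.33 higher in antibiotics distal than in antibiotics proximal arrays (SE 0.47, limma adjusted p = 0.128), the 1 gene with an unadjusted p under 0.05, where 10.3% of all probe sets were higher at that level. ASNS was 1.42 higher there (SE 0.76, adjusted p = 0.372). ATF4 was lower on every antibiotics distal array than on any antibiotics proximal array (-0.49, SE 0.31, adjusted p = 0.477), as 4.7% of probe sets were. In control piglets 0 genes had an unadjusted p under 0.05, where 7.99% of all probe sets had, and ASNS had the largest difference, -1.23 (SE 0.76, adjusted p = 0.799).

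Within piglets, ASNS was 1.94 ± 0.54 higher in distal than in proximal tissue of the 3 antibiotics piglets with both segments, while in the 4 control piglets the difference was -1.23 ± 2.18 (SD). With the piglet as a fixed block, ASNS passed in antibiotics piglets (1.94, limma adjusted p = 0.0349, range over all alternatives 0.0194 to 0.735). The test of whether the antibiotic effect depends on the segment called 0 of the 7 genes and 0.191% of all probe sets (22, or 39 with the piglet as a random block), and ASNS was the 1 gene higher at an unadjusted p of 0.05, where 3.43% of all probe sets were.

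**Figure D4:**
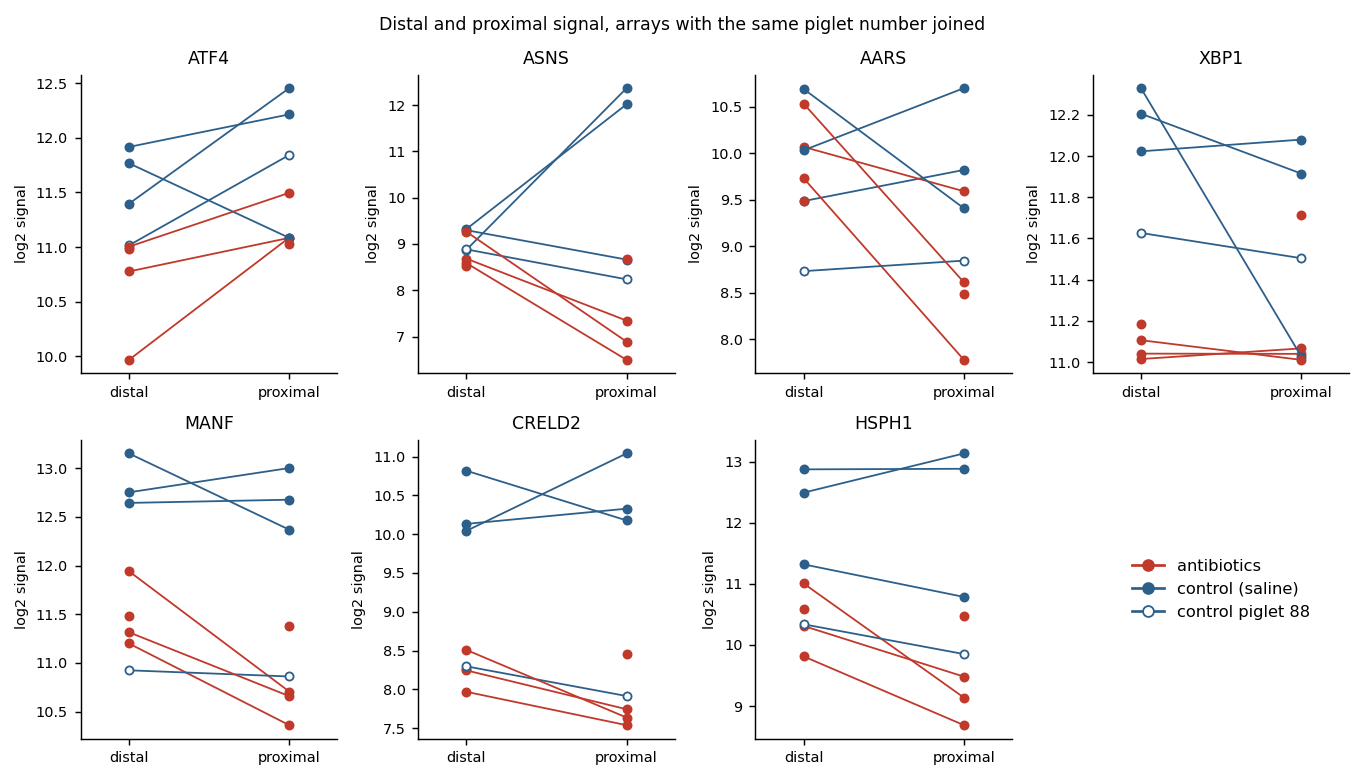
Log2 signal of the 7 genes (y axes, not starting at 0) in distal and proximal tissue, with arrays of the same piglet number joined and single points for piglets with 1 segment. ASNS was higher in distal than proximal tissue of all 3 joined antibiotics piglets (1.94 ± 0.54) and ran both ways in controls.

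On the mean of both segments per piglet, with 3 antibiotics and 4 control piglets, all 7 genes had lower means with antibiotics, where 53.2% of all probe sets had. None passed, as against 0.347% of all probe sets called, 6 had an unadjusted limma p under 0.05 (all but AARS), where 9.42% were lower at that level, and 5 did not overlap (all but AARS and MANF), where 8.28% were lower without overlap. These means leave out antibiotics piglets 85 and 98, which lack a segment. Array 98 had the highest antibiotics proximal signal for XBP1 (11.72), ASNS, MANF, CRELD2 and HSPH1, so spread and overlap here are without it. XBP1 averaged 11.05 ± 0.01 in antibiotics and 11.84 ± 0.25 in control piglets (-0.79, SE 0.19, adjusted p = 0.124). ASNS averaged 7.88 ± 0.29 in antibiotics and 9.71 ± 1.10 in control piglets (-1.83, SE 0.54, adjusted p = 0.176). CRELD2 averaged 7.94 ± 0.17 in antibiotics and 9.84 ± 1.17 in control piglets (-1.90, SE 0.56, adjusted p = 0.176). HSPH1 averaged 9.74 ± 0.43 in antibiotics and 11.71 ± 1.37 in control piglets (-1.97, SE 0.67, adjusted p = 0.219). Without piglet 88, ASNS, MANF, CRELD2 and HSPH1 passed here, with adjusted p values of 0.0494, 0.0128, 0.00419 and 0.0462. Fits with a piglet left out called 19 to 416 of all probe sets, against 40 with all piglets. Over all alternatives the limma adjusted p ranged from 0.033 to 0.547 for ASNS and from 0.0128 to 0.616 for MANF. It ranged from 0.00419 to 0.544 for CRELD2 and from 0.0462 to 0.592 for HSPH1.

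The genes also went together from array to array. Over the 16 arrays, which include pairs from the same piglet and share the group differences, the median Pearson correlation between the 7 genes was 0.650, and the median of one of the 7 with all 4684 tested genes was 0.0496. MANF and CRELD2 were most alike (0.934) and ATF4 and AARS least (0.231). With group means removed the median between the 7 was 0.576. Among 4683 other genes, those most like CRELD2 were HYOU1 (0.963), an ER chaperone, GPX2 (0.960), a glutathione peroxidase of the gut lining, and HSP90B1 (0.941), the ER form of HSP90. Most like MANF were HSPA5 (0.945), the main ER chaperone, also called BiP, SDF2L1 (0.941), an ER protein of the same folding complex, and CRELD2 itself. HSPH1 ran with SQOR (0.939), a mitochondrial enzyme of sulfide oxidation, STIP1 (0.919), the adaptor between HSP70 and HSP90, and ASNSD1 (0.913).

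The genes of the amino acid arm had other neighbours. Most like ASNS were IFRD2 (0.936), FABP3 (0.936), a fatty acid binding protein, and ADAM9 (0.926), a membrane protease. AARS ran with PREP (0.908), a peptidase that cuts after proline, VCP (0.903), the ATPase that extracts proteins for degradation, and DDX39A (0.902), an RNA helicase. ATF4 ran with CASD1 (0.909), an enzyme of sialic acid modification, DUSP11 (0.856), an RNA phosphatase, and KLF4 (0.855), a transcription factor of differentiated gut epithelium. XBP1 was most like UAP1 (0.882), an enzyme that makes the sugar donor for glycosylation, ISG20 (0.869), an interferon-induced exonuclease, and CD163 (0.869), a scavenger receptor of macrophages.

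Other genes of the same pathways were read from lists. Of 27 ER chaperone and folding genes 17 were tested, and none passed in either segment. Their means were lower with antibiotics for 13 of 17 in distal tissue (median -0.51, 2 lower at an unadjusted limma p of 0.05). In proximal tissue they were lower for 17 of 17 (median -0.86, 9 lower at that level). Over all probe sets 49.6% had lower means in distal and 56.8% in proximal tissue, and 7.95% and 7.28% were lower at that level. HYOU1 averaged 6.70 ± 0.40 in antibiotics distal and 8.12 ± 1.35 in control distal arrays (-1.42, SE 0.65, adjusted p = 0.296), and 5.82 ± 0.32 in antibiotics proximal and 8.04 ± 1.44 in control proximal arrays (-2.22, SE 0.65, adjusted p = 0.182). HSPA5 averaged 13.47 ± 0.23 in antibiotics distal and 14.52 ± 0.83 in control distal arrays (-1.05, SE 0.51, adjusted p = 0.337), and 12.79 ± 0.53 in antibiotics proximal and 14.22 ± 1.21 in control proximal arrays (-1.43, adjusted p = 0.262). DNAJB11, a co-chaperone of HSPA5, differed by -1.55 in distal and -1.42 in proximal tissue (adjusted p = 0.238 and 0.359). As for MANF and CRELD2, none passed as reported. Without both arrays of piglet 88, 4 of 17 passed in distal tissue (HSPA5, HSP90B1, HYOU1 and DNAJB11) and 9 of 17 in proximal tissue. All were lower, where 2.1% and 2.18% of all probe sets were called lower. Piglet 88 was left out after its values were seen, so these counts lend no support to a difference.

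Genes of protein entry into the ER and of ER-associated degradation were tested for 24 of 35. They had lower means for 19 in distal tissue (median -0.25), where 49.6% of all probe sets had. In proximal tissue 20 had lower means (median -0.35), where 56.8% of all had, and none passed the threshold. SEC24D, a subunit of the coat of vesicles that leave the ER, was the 1 of 24 called in distal against proximal tissue of antibiotics piglets, no larger a share than the 5.25% of all probe sets, and was lower in antibiotics distal (10.04 ± 0.29) than in antibiotics proximal arrays (11.03 ± 0.36) (limma adjusted p = 0.0249). Of 10 further sensors and regulators of the unfolded protein response 2 were tested. ATF6B, a relative of ATF6, was called in that comparison too, being higher in antibiotics distal (8.09 ± 0.25) than in antibiotics proximal arrays (7.02 ± 0.60, adjusted p = 0.0412). The antibiotic effect on it was 0.52 in distal and -0.27 in proximal tissue (adjusted p = 0.407 and 0.752). CREB3L2, the other one tested, went the other way between these segments of antibiotics piglets (-0.44, limma adjusted p = 0.767). The antibiotic effect on CREB3L2 was -0.73 in distal and -0.01 in proximal tissue (adjusted p = 0.575 and 0.997).

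The list around HSPH1, cytosolic and other chaperones and their cofactors, had lower means for 20 of 25 tested genes in distal tissue (median -0.30), for 24 of 25 in proximal tissue (median -0.49) and for 25 of 25 on the means per piglet (median -0.46). Shares of all probe sets with lower means were 49.6%, 56.8% and 53.2%. None passed, with 4, 8 and 11 lower at an unadjusted limma p of 0.05, where 7.95%, 7.28% and 9.42% of all probe sets were. HSPA8, the constitutive HSP70, averaged 13.94 ± 0.14 in antibiotics distal and 14.90 ± 0.37 in control distal arrays (-0.96, SE 0.30, adjusted p = 0.12). SERPINH1, in fact a collagen chaperone of the ER, differed by -1.17 in distal and -0.76 in proximal tissue (adjusted p = 0.12 and 0.406), and DNAJB6, an HSP70 co-chaperone, by -0.96 and -0.09 (adjusted p = 0.121 and 0.938).

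Targets of ATF4 differed in both directions. Of 34 listed genes 14 were tested and none passed with antibiotics, with lower means for 10 of 14 in distal tissue (median -0.43) and for 7 of 14 in proximal tissue (median -0.24). At an unadjusted limma p of 0.05 CEBPB (-2.20), a transcription factor, CTH (-0.85), the enzyme that makes cysteine, and VLDLR (-0.83), a lipoprotein receptor, were lower in distal tissue, and PSPH (0.98), the last enzyme of serine synthesis, was higher. In proximal tissue 5 were lower at that level, SLC1A5 (-1.51), a glutamine transporter, MTHFD2 (-1.35), a mitochondrial folate enzyme, DDIT3 (-0.95), the transcription factor CHOP, VLDLR (-0.84) and XPOT (-0.58), which exports tRNA, and 2 were higher, PCK2 (1.26), a mitochondrial enzyme of gluconeogenesis, and ALDH18A1 (0.68), an enzyme of proline synthesis. Of all probe sets 49.6% had lower means in distal and 56.8% in proximal tissue, and 7.95% and 7.28% were lower at that level. All of these targets but CTH are named after their values were seen. In distal against proximal tissue of antibiotics piglets 1 of 14 was called, a share near the 5.25% of all probe sets. This gene, CTH, was lower in antibiotics distal (10.86 ± 0.48) than in antibiotics proximal arrays (12.25 ± 0.53), by 1.39 on the log2 scale (adjusted p = 0.03). TRIB3 and CHAC1, widely used readouts of ATF4, were not analysed here.

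The tRNA charging enzymes, the family of AARS, came close to 0 in distal tissue and below it in proximal tissue. Of 17 tested, 7 had lower means with antibiotics in distal tissue (median 0.01) and 15 in proximal tissue (median -0.53, 6 lower at an unadjusted limma p of 0.05), and the distal minus proximal effect was above 0 for 15 of 17 (median 0.75, against 0.08 over all tested probe sets, of which 43.4% were below 0). None passed in any of these comparisons. Lower means were found for 49.6% of all probe sets in distal and 56.8% in proximal tissue. In proximal tissue 7.28% of all were lower at an unadjusted limma p of 0.05. AIMP1, a scaffold of the charging complex, averaged 12.34 ± 0.09 in antibiotics distal and 11.74 ± 0.34 in control distal arrays (0.60, SE 0.24, adjusted p = 0.223) and differed by 0.15 in proximal tissue. FARSB, a subunit of the phenylalanine enzyme, differed by 0.55 in distal and -0.09 in proximal tissue (adjusted p = 0.256 and 0.912), and DARS, the aspartate enzyme, by 0.60 and -0.32 (adjusted p = 0.603 and 0.836). The list of eIF2 kinases, eIF2, its exchange factor eIF2B and related regulators, 9 tested of 14, had medians of 0.24 in distal and -0.29 in proximal tissue with none past the threshold. EIF2AK2 was the only eIF2 kinase tested (0.21 in distal and -0.08 in proximal tissue, limma adjusted p = 0.897 and 0.974). The list thus does not tell how the other kinases stood. EIF2B3, EIF2B2 and EIF2B1, subunits of eIF2B, differed by 0.52, 0.41 and 0.40 in distal tissue (limma adjusted p = 0.321, 0.492 and 0.545). In proximal tissue EIF2B3 differed by -0.29, while EIF2B2 and EIF2B1 had higher means with antibiotics, by 0.59 and 0.34 (adjusted p = 0.685, 0.355 and 0.672), against the direction of the list's median.

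The fit without both arrays of piglet 88 called genes of other lists too. In proximal tissue it called 4.58% of all probe sets, 2.18% being lower. It called 3 of 17 tRNA charging genes there (GARS, MARS and NARS) and 5 of 25 cytosolic and other chaperones (HSP90AA1, HSPD1, STIP1, FKBP4 and TCP1), all lower. It also called SEC23B lower, 1 of 24 on the list around protein entry and degradation, and EIF2B2 higher, 1 of 9 on its list. Of the ATF4 targets it called CEBPB and SLC1A5 lower and PCK2 higher in proximal tissue, and CEBPB lower and PSPH higher in distal tissue. SERPINH1, 1 of 25 on the chaperone list, was called lower in distal tissue, where 3.75% of all probe sets were called. There 0 of 17 tRNA charging genes were called. Piglet 88 was left out after its values were seen, so none of these counts sets a list apart from all probe sets. These genes were named after their values were seen.

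**Figure D5:**
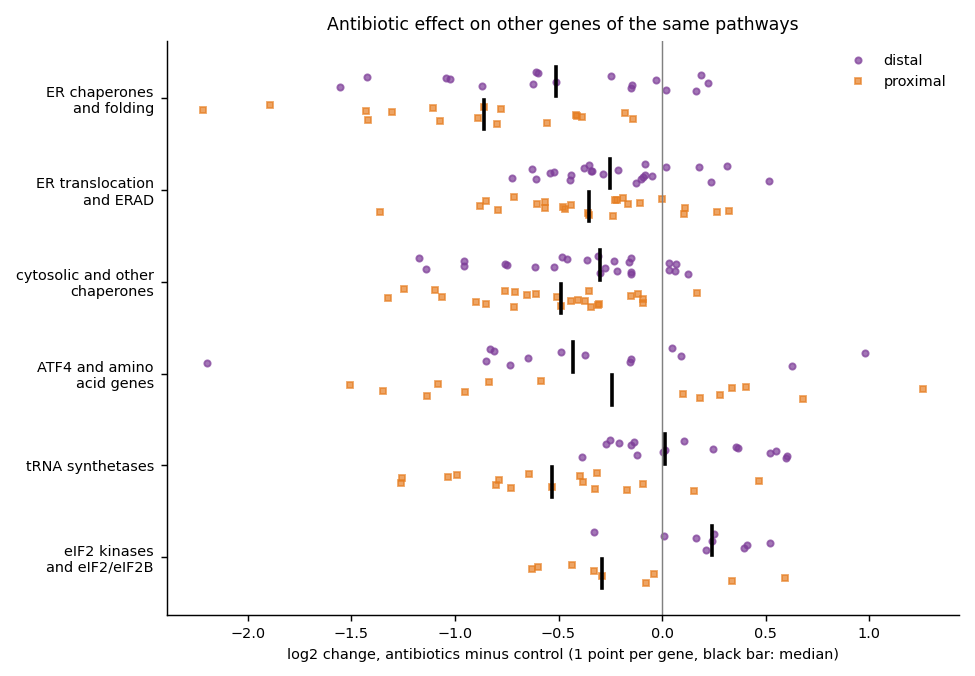
Log2 change (x axis, antibiotics minus control) of each tested gene of 6 pathway lists in distal tissue (circles) and proximal tissue (squares), with black bars at the medians. The ER chaperone list had the lowest median in both segments (-0.51 distal, -0.86 proximal), and the tRNA charging list had a median of 0.01 in distal and -0.53 in proximal tissue.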

How the data were processed

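The authors deposited 1 log2 value per probe set and array from Affymetrix porcine arrays, hybridised with biotin-labelled RNA made with a 3′ kit per the labels' protocols. The submitters' processing notes name limma, GCRMA and GCOS 1.2, without settings. The deposited log2 values have a floor at 2.14, and 39.7% of values lay under 2.5, so differences near the floor are poorly determined. The tested probe sets of the 7 genes were above log2 5 on every array.

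Of 24123 probe sets 124 controls were left out. The platform annotation gave 1 gene for 10069, several for 198 and no gene for 13732. Probe sets above log2 5 on at least 4 arrays were tested (11538, of 4684 genes). A limma 3.58.1 model (R 4.3.3) with a mean per group took in every array, its variances were moderated, and p values were adjusted by Benjamini-Hochberg at 0.05. The script was tested on simulated data. Figures used matplotlib 3.10.9 in Python 3.11.15.

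The piglet number in the sample names was checked for the 7 piglets with both segments. Their residuals in one and the other segment had a correlation of 0.0293 to 0.526, over 0.1 for 5. Samples with one number are taken to be one piglet, and this rests on the names alone.

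The 7 genes and all lists were chosen with earlier results of these data known. Named were the 7 genes, the 3 genes most correlated with each, and per pathway list the genes past the threshold in a comparison or, with none, the 3 with the largest moderated t in distal tissue. Symbols follow the platform annotation, and 12 list genes were matched by an older name. Alternatives were other filters, quantile normalization or equal medians, trend and robust variance, array weights, averaged probe sets, the 5′ minus 3′ covariate, the piglet as a block, and arrays left out. Leaving out both arrays of a piglet was added after seeing the data.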

Additional observations from a re-analysis of the deposited data

Results flagged for a closer look

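Among the 28 sets of 4 arrays checked (7 genes in 4 groups), 2 held an array far from the other 3 by Dixon's criterion, which chance gives in about 1 of 20. ATF4 was 11.50 on antibiotics proximal array 95, above 11.03 to 11.09 on the other arrays of that group. XBP1 was 11.72 on antibiotics proximal array 98, above 11.01 to 11.07 on the others, and piglet 98 had no distal array.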

How the results depend on the processing

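None of the 7 genes passed as reported, and the number of the 7 that passed under other settings was as follows. With array quality weights it was 4 in distal tissue, 4 in proximal tissue, 1 (ASNS) for the difference between segments, 4 for distal against proximal in antibiotics piglets and 5 on means per piglet. The count over all probe sets with weights is not given here. Over all alternatives that count reached 1665, 951, 210, 3008 and 922 in these comparisons, in that order. In distal tissue the number of the 7 was 1 (XBP1) with trend and robust variance and 1 (XBP1) with only the 8 distal arrays. On means per piglet it was 2 (MANF and CRELD2) without control distal arrays 83 and 88. Leaving out arrays or piglets gave 0 to 3 in distal tissue, 0 to 4 in proximal tissue and 0 to 4 on means per piglet, the highest each time without piglet 88. With the number as a replicate block, distal against proximal in antibiotics piglets gave 1 (ASNS) as a fixed effect, and as a random block (correlation 0.172) the count stayed 0 in all 5 comparisons it was run for. It was 0 for distal against proximal in controls under every setting run. The sign of the following differences turned. In distal tissue AARS was -0.41 without control distal arrays 83 and 88 (-0.12 to 0.54 with arrays or piglets left out). For the difference between segments ATF4 was 0.0683 with the 5′ minus 3′ covariate, 0.0802 without the 2 arrays where that is lowest (antibiotics distal 87 and control distal 83) and -0.34 to 0.24 with arrays left out, and CRELD2 was -0.16 without control distal arrays 83 and 88 and -0.0632 to 1.09 with arrays left out. For distal against proximal in antibiotics piglets XBP1 was 0.024 with weights, 0.015 with only piglets of both segments, 0.015 with the fixed replicate block and -0.19 to 0.0476 with arrays left out, and CRELD2 was -0.0216 with the covariate. In controls CRELD2 was 0.0106 with equal medians, 0.56 without arrays 83 and 88 and -0.69 to 0.47 with arrays left out. AARS was -0.19 with weights and -0.37 to 0.38 with arrays left out, MANF was -0.0278 with the covariate, -0.12 without the 2 lowest arrays and -0.31 to 0.62 with arrays left out, and HSPH1 was -0.0389, -0.16 and -0.28 under weights, covariate and without those 2 arrays, and -0.51 to 0.58 with arrays left out. The causes were not tested. The amino acid minus chaperone arm effect ranged over all alternatives from 0.62 to 1.09 in distal and from -0.72 to 0.07 in proximal tissue. Over all probe sets the count called ranged from 81 to 1665 in distal tissue (245 as reported), 0 to 951 in proximal tissue (17), 8 to 210 for the difference (22), 209 to 3008 (606) and 19 to 80 (42) between segments in antibiotics and control piglets, and 1 to 922 on means per piglet (40). The number of arrays, 4 a group, limits all of these.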

Other observations

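Some genes whose signal ran with one of the 7 over the arrays differed more between treatments than the 7 did. CD163, the macrophage scavenger receptor that ran with XBP1, averaged 4.03 log2 in antibiotics distal and 9.03 in control distal arrays (limma adjusted p = 0.0056), and 4.81 in antibiotics proximal and 8.58 in control proximal arrays (-3.78, adjusted p = 0.0959). ISG20, an interferon-induced exonuclease that also ran with XBP1, averaged 6.08 in antibiotics distal and 8.31 in control distal arrays (-2.23, limma adjusted p = 0.0428). GPX2, the gut glutathione peroxidase that ran with CRELD2, averaged 6.74 in antibiotics distal and 11.0 in control distal arrays (-4.26, limma adjusted p = 0.0755), and 6.16 in antibiotics proximal and 10.35 in control proximal arrays (-4.18, adjusted p = 0.167). The genes that ran with AARS (PREP, VCP and DDX39A) lay near 0 in distal tissue (-0.01, -0.08 and -0.06). They lay lower in proximal tissue (-0.54, -0.71 and -0.55), and none passed the threshold. All genes named here were picked by correlation with XBP1, CRELD2 or AARS over arrays that share the group differences. A pattern across the groups like that of the gene they ran with thus follows in part from the choice, and is no separate result.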
